A study of Mus musculus with 8 samples.

Results

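The 10 genes described here encode feedback inhibitors of the mitogen-activated protein kinase (MAPK) pathways: the dual-specificity phosphatases *Dusp1*, *Dusp2*, *Dusp4*, *Dusp5*, *Dusp6*, *Dusp10* and *Dusp16*, the Sprouty genes *Spry1* and *Spry2*, and *Spred1*. They were listed by gene symbol, by a rule that uses no measured value but was set with earlier results of these data known, and all 10 were found among the 22520 genes and assembled transcripts of the table. They were measured by bulk RNA-seq in CD8+ T cells from mouse spleen that were kept under anti-CD3/CD28 stimulation with IL-2 until day 6. The cells received 40 µM DADA (diisopropylamine dichloroacetate, an inhibitor of pyruvate dehydrogenase kinase) or an equal volume of its solvent DMSO from day 3, and each group held 4 libraries. Both groups were thus persistently stimulated, and no unstimulated cells were compared. The genotype tag of the labels reads control for DMSO and model for DADA, with no genetic change described, and the labels do not say whether the 4 biological replicates came from separate animals, so p-values measure the spread between these libraries.

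When the T cell receptor is engaged, RAS and a chain of kinases switch on the MAP kinases ERK, JNK and p38 by phosphorylating them on a threonine and a tyrosine. DUSP phosphatases remove both phosphates and so switch the kinases off, while Sprouty and SPRED proteins act further upstream and restrain the step from RAS to ERK. Many of these genes are themselves induced through ERK, which makes them both brakes on the pathway and readouts of its recent activity. In a bulk library, a change in the number of expressing cells and a change in RNA per cell cannot be told apart.

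All values are FPKM (fragments per kilobase of transcript, scaled to the mapped fragments of the library), which allow levels of different genes to be compared per length. Steps between the lowest values gave a rough estimate of 13840000 to 16300000 mapped fragments per library with DMSO and 15260000 to 18750000 with DADA. Scaled by the longest annotated transcript, this is roughly 106 fragments for the sparsest value of these genes (*Spry2*, a counting error of 9.70%) and at least 2358 for *Dusp4* (2.06%), and these errors cover counting only. Of the CD8 T cell markers, *Trac* was not analysed here, and *Cd3d*, *Cd3e*, *Cd3g*, *Cd8a* and *Cd8b1* summed to 674 to 680 FPKM with DMSO and 776 to 805 FPKM with DADA. All 5 were higher with DADA by limma, as were 30.9% of all genes tested. The 2 CD4 T cell markers summed to at most 0.513 FPKM, the 3 NK markers to at most 0.346 FPKM and the 3 erythroid markers to at most 0.258 FPKM in any library. *Csf1r* and *Adgre1* were at 0 in every library, and the other markers of B cells (sum of 4 genes 2.36 to 3.54 FPKM) and myeloid cells (sum of 5 genes 3.44 to 3.96 FPKM with DMSO and 5.11 to 5.59 FPKM with DADA) were nearly all *Cd79b* and *Cd68*. The part of these markers in the results was not tested.

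Across the 10 genes, feedback inhibitors were slightly higher with DADA or not detectably different, and none was called lower. All 10 passed the filter of 1 FPKM in at least 4 libraries, and 7 were higher with DADA by limma with a Benjamini-Hochberg adjusted p-value under 0.05, against 30.9% of the 10666 genes tested that were higher and 35.3% that were lower. None was lower at an adjusted or at an unadjusted p-value under 0.05. Since 66.2% of all genes tested were called in either direction, 7 calls among 10 genes are near that background in number, and the 7 calls were all in the direction of DADA. The median log2 fold change of the 10 genes was 0.22, against -0.02 over all genes tested, on the scale of log2(FPKM + 1). The changes were modest, since 1 member changed by at least 0.5 (15.7% of all genes tested were called and changed this much) and none by 1 (4.03%). This scale understates changes of low genes, and with 0.1 instead of 1 added to the FPKM *Dusp1* also passed 0.5, at 0.54. For 5 members, *Dusp1*, *Dusp4*, *Dusp5*, *Dusp16* and *Spry2*, every DADA library lay above every DMSO library, which held for 28.4% of the genes tested, and no member had every DADA library below every DMSO library (32.2%).

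**Figure D1:**
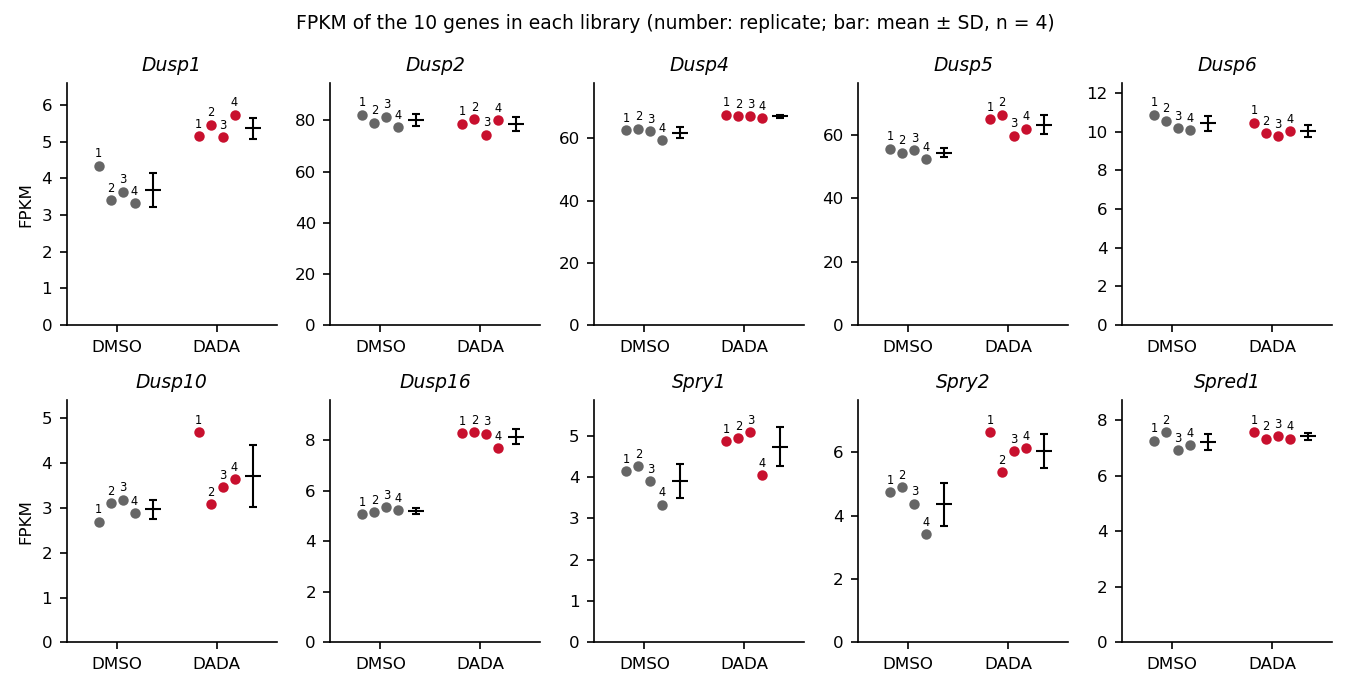
FPKM of each of the 10 genes (vertical axes, starting at 0) in the 4 DMSO (grey) and 4 DADA libraries (red), with the replicate number above each point and the mean ± SD beside the points. Relative to its level, *Dusp16* is separated most widely, at 5.06 to 5.36 FPKM with DMSO and 7.70 to 8.33 FPKM with DADA. The groups overlap for *Dusp2*, *Dusp6*, *Dusp10*, *Spry1* and *Spred1*.

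The inducible nuclear phosphatases *Dusp2*, *Dusp4* and *Dusp5* were by far the most abundant members, and *Dusp1* was among the sparsest. Proximal promoter sequence is shown for the 3 nuclear phosphatase genes whose windows held a match to a searched element, since *Dusp1* and *Dusp5* rose and *Dusp2* was not called. Windows of 250 bases upstream of the start site were available from RefSeq (GRCm38.p6) for 9 members. *Dusp4* had no window and was not searched. The windows were searched on both strands for the cAMP response element (TGACGTCA), the CArG box of serum response factor, the AP-1 site (TGAGTCA, whose other strand reads TGACTCA), the E-box of MYC and MAX (CACGTG), an ETS site (CCGGAAG) and the NF-kB site. Each line below gives 60 bases, 5′ to 3′ on the gene's strand, with the matches in capitals.
*Dusp1* (chr17:26508573-26508632, minus strand, bases -160 to -101 from the start; TGACGTCA and CACGTG): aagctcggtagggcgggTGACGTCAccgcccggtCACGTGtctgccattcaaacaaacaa
*Dusp2* (chr2:127336019-127336078, plus strand, bases -140 to -81; CACGTG): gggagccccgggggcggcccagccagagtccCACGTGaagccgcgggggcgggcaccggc
*Dusp5* (chr19:53529035-53529094, plus strand, bases -110 to -51; 2 adjoining CArG boxes): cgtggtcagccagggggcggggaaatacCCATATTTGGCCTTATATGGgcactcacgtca

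The cAMP response element was found in 1 member (*Dusp1*), and in 1.55% of all 32851 windows of this length. The CArG box was likewise found in 1 member (*Dusp5*), and in 1.47% of all windows, and the MYC and MAX E-box in 2 members, and in 6.02% of all windows. No member window held the AP-1, ETS or NF-kB letters, which 4.46%, 6.91% and 5.00% of all windows held. A match describes the letters of the window and was not tested as a binding site in these cells.

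*Dusp1* (ENSMUSG00000024190), an immediate-early gene whose product acts on p38, JNK and ERK, was at 4.35, 3.41, 3.64 and 3.33 FPKM in DMSO 1 to 4 and at 5.15, 5.46, 5.12 and 5.73 FPKM in DADA 1 to 4. The groups did not overlap, although DMSO 1 was nearer to the DADA libraries than the other DMSO libraries were. Its mean rose from 3.68 ± 0.462 (SD, n = 4) to 5.36 ± 0.290 FPKM (SD, n = 4), 1.46-fold. On the log2 scale the difference was 0.45 (95% interval 0.29 to 0.61, limma, adjusted p = 3.01e-04), larger in size than that of 80.3% of the genes tested. This was the only member of the nuclear group with a low level and also the member of that group with the largest change.

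*Dusp5* (ENSMUSG00000034765), a phosphatase specific for ERK in the nucleus, was at 55.7, 54.3, 55.2 and 52.3 FPKM with DMSO and at 64.9, 66.4, 59.8 and 61.9 FPKM with DADA. Every DADA library was higher, and the DADA libraries spread more widely than the DMSO libraries. The mean rose from 54.4 ± 1.48 to 63.3 ± 2.97 FPKM (SD, n = 4 each), or by 0.21 in log2 (95% interval 0.13 to 0.29, limma, adjusted p = 4.40e-04).

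*Dusp4* (ENSMUSG00000031530), another inducible nuclear phosphatase, was at 62.7, 63.0, 62.2 and 59.4 FPKM with DMSO and at 67.6, 67.1, 67.1 and 66.3 FPKM with DADA. The 4 DADA values lay within about 1 FPKM of each other and above all DMSO values. This was a small log2 fold change, 0.12 (95% interval 0.06 to 0.17, limma, adjusted p = 0.00194), and 29.5% of the genes tested changed by less.

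*Dusp2* (ENSMUSG00000027368), a phosphatase found mainly in haematopoietic cells and induced on T cell activation, had the highest level of the 10 genes. It was at 82.3, 79.1, 81.4 and 77.2 FPKM with DMSO and at 78.8, 80.4, 74.5 and 80.0 FPKM with DADA. The groups overlapped, with the lowest value in DADA 3 and the highest in DMSO 1. Its log2 fold change was -0.03, with a 95% interval of -0.10 to 0.04 (limma, adjusted p = 0.433). The sign is not settled by these data, since rescaling each library to the same total gave 0.0025 and quantile normalization 0.03.

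*Dusp6* (ENSMUSG00000019960), the cytoplasmic phosphatase of ERK, was at 10.9, 10.6, 10.2 and 10.1 FPKM with DMSO and at 10.5, 9.91, 9.78 and 10.0 FPKM with DADA. The groups overlapped (exact permutation test, p = 0.143). Its change on the log2 scale was -0.05, with a 95% interval of -0.13 to 0.04 (limma, adjusted p = 0.277). The sign was negative in every alternative, from -0.08 to -0.02, without a call in any.

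The phosphatases that prefer JNK and p38 over ERK were both called higher, to different degrees of stability. *Dusp16* (ENSMUSG00000030203), which acts mainly on JNK, was at 5.06, 5.14, 5.36 and 5.24 FPKM with DMSO and at 8.28, 8.33, 8.26 and 7.70 FPKM with DADA. The groups were far apart, and DADA 4 lay below the other DADA libraries. Its mean rose from 5.20 ± 0.127 to 8.14 ± 0.297 FPKM (SD, n = 4 each), 1.57-fold, with a log2 fold change of 0.56 (95% interval 0.47 to 0.65, limma, adjusted p = 9.96e-07). This was the largest change among the 10 genes, exceeding in size 87.2% of the genes tested.

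*Dusp10* (ENSMUSG00000039384), a phosphatase of JNK and p38, was at 2.69, 3.10, 3.18 and 2.88 FPKM with DMSO and at 4.69, 3.07, 3.45 and 3.64 FPKM with DADA. DADA 2 lay inside the range of the DMSO libraries, and DADA 1 was the highest by more than 1 FPKM. The log2 fold change of 0.24 (95% interval 0.03 to 0.46) was just past the threshold (limma, adjusted p = 0.0471), and the exact permutation test gave p = 0.0857. The call was lost without DMSO 1, 2, 3 or 4, where the log2 fold change was 0.21, 0.26, 0.27 and 0.23. It was also lost without DADA 1, 3 or 4, with 0.15, 0.27 and 0.25, and was kept without DADA 2 (0.31). Without the filter on low values the adjusted p was 0.0871 (limma), and with quantile normalization the log2 fold change was 0.13 (adjusted p = 0.238).

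Of the inhibitors that act between the receptor and ERK, *Spry2* rose, *Spry1* was called with less certainty and *Spred1* was not called. *Spry2* (ENSMUSG00000022114) was at 4.75, 4.90, 4.38 and 3.41 FPKM with DMSO and at 6.65, 5.37, 6.03 and 6.12 FPKM with DADA. Every DADA library was above every DMSO library, of which DMSO 4 was the lowest. The mean rose 1.39-fold, from 4.36 ± 0.670 to 6.04 ± 0.524 FPKM (SD, n = 4 each), with a log2 fold change of 0.40 (95% interval 0.19 to 0.61, limma, adjusted p = 0.00362). Without DMSO 4 it was still called, with the lowest log2 fold change among the fits that left out a library, 0.31.

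*Spry1* (ENSMUSG00000037211), the other Sprouty gene, was at 4.14, 4.26, 3.90 and 3.33 FPKM with DMSO and at 4.87, 4.93, 5.09 and 4.04 FPKM with DADA. Only DADA 4 overlapped with the DMSO libraries. The log2 fold change was 0.23 (95% interval 0.05 to 0.40, limma, adjusted p = 0.0284), with p = 0.0857 in the exact permutation test. The call was lost without DMSO 3 (0.23) or DMSO 4 (0.17), and without DADA 1 (0.21), DADA 2 (0.21) or DADA 3 (0.20). It was also lost without the filter on low values (limma, adjusted p = 0.0560) and with quantile normalization (log2 fold change 0.12, limma, adjusted p = 0.230).

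*Spred1* (ENSMUSG00000027351), which brings the RAS inhibitor neurofibromin to the membrane, was at 7.26, 7.57, 6.91 and 7.09 FPKM with DMSO and at 7.57, 7.32, 7.42 and 7.33 FPKM with DADA. Its values overlapped and its log2 fold change was 0.04, with a 95% interval of -0.05 to 0.12 (limma, adjusted p = 0.438). With quantile normalization the sign turned, to -0.01.

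**Figure D2:**
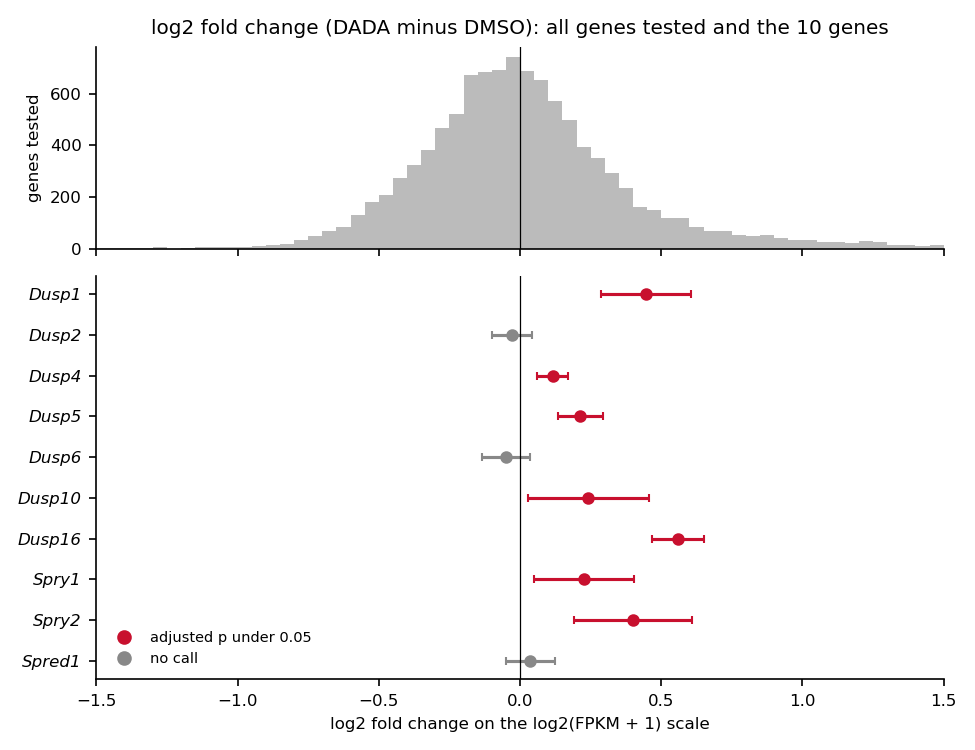
The histogram gives the number of genes tested by log2 fold change (DADA minus DMSO), with 16 genes below -1.5 and 166 above 1.5 outside the axis, and the lower panel the log2 fold change of each of the 10 genes with its 95% interval from limma. The 7 called genes (red) lie between 0.12 and 0.56, and the intervals of *Dusp2*, *Dusp6* and *Spred1* (grey) include 0.

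For the 5 members whose groups did not overlap, an exact permutation of the group labels (two-sided, 70 ways) gave p = 0.0286, the smallest that 4 against 4 libraries allow. Leaving out each library in turn left these 5 genes called, with log2 fold changes of 0.41 to 0.51 for *Dusp1*, 0.10 to 0.12 for *Dusp4*, 0.19 to 0.24 for *Dusp5*, 0.55 to 0.58 for *Dusp16* and 0.31 to 0.45 for *Spry2*. Over the same fits, 5 or 6 of the 10 members were called higher and none lower.

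The order of the levels was nearly the same in both groups. *Dusp2* was first, followed by *Dusp4*, *Dusp5* and *Dusp6*, and *Dusp10* was last with DMSO and with DADA. The step from *Dusp5* to *Dusp6* was the widest in the order, 5.22-fold with DMSO and 6.30-fold with DADA. *Dusp4* and *Dusp5*, which were separate with DMSO, overlapped with DADA (67.0 ± 0.510 and 63.3 ± 2.97 FPKM, SD, n = 4 each). *Dusp16* moved from below *Spred1* with DMSO (5.20 against 7.21 FPKM) to above it with DADA (8.14 against 7.41 FPKM), with no overlap of their values in either group. Neighbours whose values overlapped were *Spry2* and *Spry1* as well as *Spry1* and *Dusp1* with DMSO, and *Spry2* and *Dusp1* as well as *Spry1* and *Dusp10* with DADA.

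Summed over the 7 DUSP genes, the mean level of 4 libraries was 219 FPKM (SD 5.71) under DMSO, and under DADA it was 236 FPKM (SD 5.82). *Dusp2*, *Dusp4* and *Dusp5* together made up 89.7% to 89.9% of this sum in the DMSO libraries and 88.1% to 88.9% in the DADA libraries. The share of *Dusp2* went from 36.2% to 36.8% with DMSO to between 32.7% and 34.0% with DADA, and that of *Dusp5* from 24.8% to 25.0% to between 26.2% and 27.6%. The JNK and p38 phosphatases *Dusp10* and *Dusp16* took 3.47% to 3.86% of the sum with DMSO and 4.74% to 5.41% with DADA. These shares sum over members and are given as a description without a test.

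**Figure D3:**
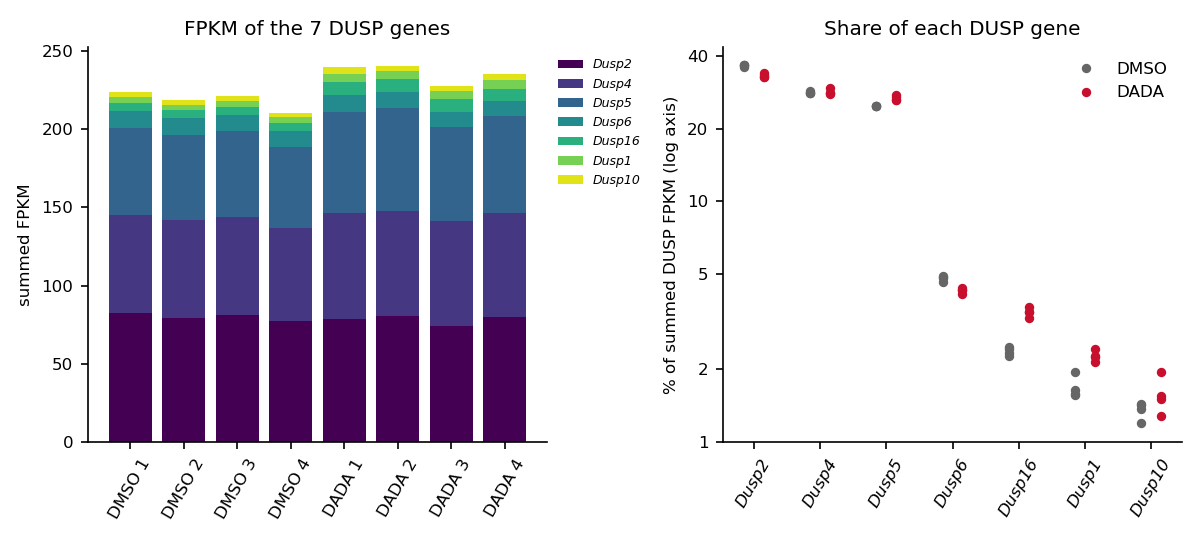
Left, stacked bars of the FPKM of the 7 DUSP genes in each library. Right, the share of each gene in that sum in percent (log axis), 1 point per library. The shares of *Dusp16* do not overlap between DMSO (2.26% to 2.49%) and DADA (3.27% to 3.62%).

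Among the DMSO libraries, DMSO 4 held the lowest of the 4 DMSO values for 7 of the 10 members (*Dusp1*, *Dusp2*, *Dusp4*, *Dusp5*, *Dusp6*, *Spry1* and *Spry2*), while it was lowest for 24.9% of all genes tested. Of the 17 ERK target genes tested, described below, 10 were also lowest in DMSO 4. This was noticed after the values were seen and was not tested, and among the DADA libraries no library was lowest for more than 4 members. Without DMSO 4, 5 members were called higher, *Spry1* and *Dusp10* being lost.

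Relatives of the 10 genes were called in both directions. Of 18 other DUSP, Sprouty and SPRED genes listed, 17 were in the table and 10 passed the filter, of which 5 were higher and 1 was lower, with a median log2 fold change of 0.16. The shares over all genes tested were 30.9% higher and 35.3% lower, or 66.2% called. *Spred3* passed the filter only through the DADA libraries, where it is high, and among the 9 other genes 4 were higher and 1 was lower, with a median of 0.13. *Dusp22*, a small phosphatase known to dampen signaling by the kinase LCK, rose from 8.44 ± 1.09 to 20.2 ± 1.04 FPKM (1.18 on the log2 scale, limma, adjusted p = 4.79e-07). *Spred3* was at 0.406 ± 0.0498 FPKM with DMSO and at 1.55 ± 0.152 FPKM with DADA. Its difference on the log2 scale was 0.85, but 1.70 with a pseudocount of 0.1 and 0.55 with quantile normalization. *Spred2*, singled out after its values were seen as the nearest relative of *Spred1*, rose from 8.75 ± 0.915 to 14.4 ± 0.341 FPKM, or by 0.66 on the log2 scale. Whether *Spred2* differed from *Spred1* in its change was not tested. *Dusp3*, whose product acts on ERK and JNK, rose from 1.29 ± 0.168 to 2.86 ± 0.354 FPKM, and *Dusp12* fell from 9.18 ± 0.746 to 5.34 ± 0.662 FPKM (-0.68 on the log2 scale, limma, adjusted p = 3.44e-05).

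The route from the receptor to ERK, on which these inhibitors act, was called in both directions, mostly by small amounts. Of 20 genes listed, 19 passed the filter, 4 were higher, 5 were lower and 10 were not called, and the median log2 fold change was -0.01. For comparison, 66.2% of all genes tested were called, 30.9% higher and 35.3% lower. The exception in size was *Map2k1*, which encodes MEK1, a kinase that phosphorylates ERK directly. It rose from 33.1 ± 1.02 to 64.7 ± 0.901 FPKM, 1.96-fold (0.95 on the log2 scale, limma, adjusted p = 1.13e-09). *Mapk3*, which encodes ERK1, and *Braf* rose by 0.20 and 0.17, and *Shoc2* and *Ptpn11* had log2 fold changes of -0.19 and -0.13.

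Genes of the JNK and p38 routes, from the kinases upstream to JNK and p38 themselves and the p38 targets *Mapkapk2* and *Mapkapk3*, went both ways. Of 20 genes listed, 18 passed the filter, 5 were higher and 8 lower, with a median log2 fold change of -0.09. Calls in both directions were also common over all genes tested, with 30.9% higher and 35.3% lower. *Map3k1*, which encodes a kinase at the top of the JNK route, rose from 6.75 ± 0.463 to 14.8 ± 0.307 FPKM (log2 fold change 1.03, limma, adjusted p = 3.36e-08), and *Map2k7* and *Map3k11* each rose by 0.30. *Map2k6*, an activating kinase of p38, fell from 2.94 ± 0.369 to 1.43 ± 0.192 FPKM (log2 fold change -0.70), *Map4k1* by 0.53 and *Map3k3* by 0.46 on the log2 scale. *Map4k1* encodes a kinase known to restrain T cell receptor signaling, so the members of this list that fell include a brake as well as activators.

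Other genes that restrain RAS or the signaling around it were called in both directions. All 14 genes listed passed the filter, and 3 were higher and 7 lower, with a median log2 fold change of -0.10, where 30.9% of all genes tested were higher and 35.3% lower. With TPM rescaling, 5 were higher and 6 lower. *Dab2ip* passed the filter only through the DMSO libraries, and without it 6 were lower and the median was -0.07. The ubiquitin ligase gene *Cblb* (log2 fold change 0.49, 69.4 ± 1.06 to 97.9 ± 1.51 FPKM) and the GTPase-activating gene *Rasa2* (0.28) rose. *Lztr1*, whose product takes part in RAS degradation, fell from 33.1 ± 0.918 to 24.7 ± 0.561 FPKM (log2 fold change -0.40, limma, adjusted p = 1.04e-06), and the adaptor gene *Dok2* and *Rasal1* had log2 fold changes of -0.38 and -0.35.

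Genes known to be induced through ERK, together with the ETS and SRF factors that carry its signal, were more often higher than lower. Of 21 listed, 17 passed the filter, 10 were higher and 5 lower, with a median log2 fold change of 0.13. Among all genes tested, 30.9% were higher and 35.3% lower, with a median of -0.02. *Ier3*, an immediate-early gene, rose from 11.5 ± 0.706 to 68.3 ± 2.81 FPKM (2.47 on the log2 scale, limma, adjusted p = 5.44e-11), and the AP-1 gene *Junb* and the zinc finger gene *Egr3* rose by 0.87 and 0.81. *Fosl1*, *Etv4* and *Etv5* fell, with log2 fold changes of -0.54, -0.53 and -0.28. *Etv4* and *Etv5*, like *Dusp6* and the Sprouty genes, are commonly used as readouts of ERK output. In these libraries such readouts were higher (*Spry2*, and *Spry1* with less certainty), lower (*Etv4*, *Etv5*) or not called (*Dusp6*). *Spry4* lay under the filter and is described at the end.

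**Figure D4:**
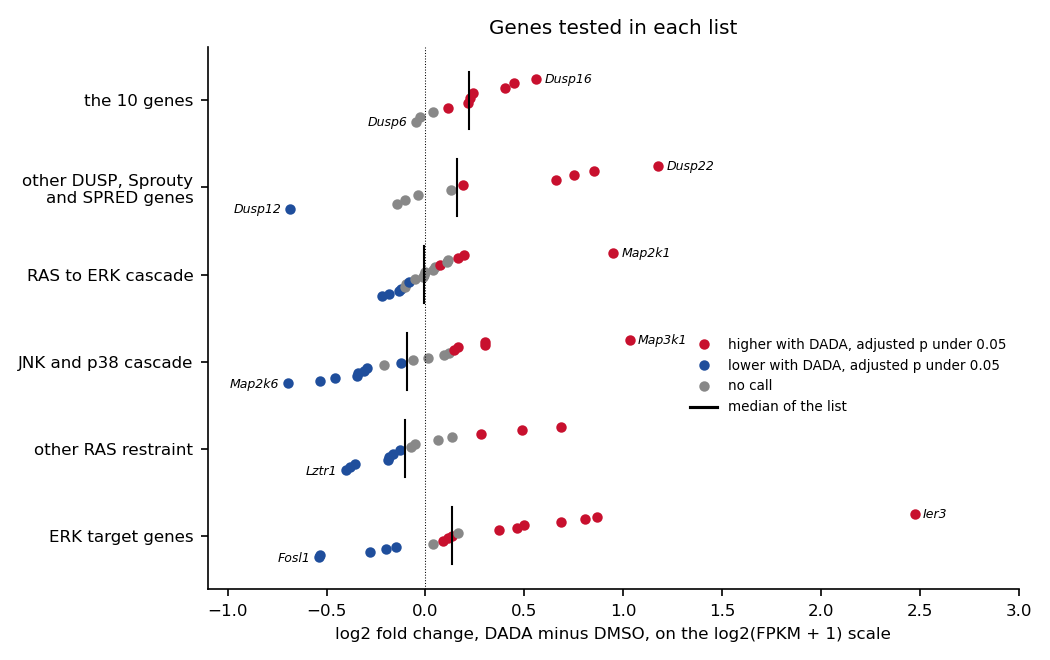
Log2 fold change (horizontal axis, DADA minus DMSO) of every gene tested in the 10 genes and 5 related lists, coloured by call (red higher, blue lower, grey no call), with the median of each list as a vertical bar and genes at the ends named where they are described in the text. The 10 genes hold no blue point, while each of the other lists has calls in both directions.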

How the data were processed

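CD8+ T cells were profiled in 8 libraries, 4 with DMSO and 4 with DADA, grouped by their titles. For every gene, the table that the authors deposited holds 1 FPKM value in each library. Per the labels, the processing notes name HISAT2 2.0.5, StringTie 1.3.3, SAMtools 0.1.18, Picard 1.41, FastQC 0.11.9 and CASAVA 1.8.2 and the builds GRCm39 and GRCh38, without roles. The annotation and any strand setting are not given in the sources used here, and the labels and the study's methods name different library kits. RefSeq sequences are from GRCm38.p6 and were matched by symbol.

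Genes were kept at 1 FPKM or more in at least 4 libraries (10666 genes). Their log2(FPKM + 1), a scale that understates changes of low genes, was fitted with limma 3.58.1 under R 4.3.3 (lmFit, eBayes with trend, Benjamini-Hochberg over all genes tested, call at an adjusted p under 0.05) and the script was tested on simulated data. Depth was estimated from the lowest values of 4431 genes with 1 transcript in GENCODE M21. Of the 377 to 421 values used per library, only 31.0% to 46.7% lay within 0.1 of a whole fragment. The depths are therefore rough, and no count test was run. The members and lists were chosen with earlier results of these data known. Named were all 10 members and, of each other list, the 3 called genes with the largest change in each direction, except where marked. Some genes that this rule names are not reported here. Figures were drawn with matplotlib 3.10.9.

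The alternatives were a pseudocount of 0.1, no filter, a mean of at least 5 FPKM, rescaling to TPM, median-ratio scaling, quantile normalization, no trend, the replicate number as a block, and each library left out. Counting the lists without genes that reached 1 FPKM in only 1 group was added after the data were seen.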

Additional observations from a re-analysis of the deposited data

Results flagged for a closer look

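Of 76 groups of 4 values looked at, for the 10 members and the other genes named by rule, 3 held a library far from the rest of its group by the gap divided by the range of the group (above Dixon's 95% critical value), where chance gives about 1 in 20 groups. *Dusp16* was at 7.70 FPKM in DADA 4 and at 8.26 to 8.33 FPKM in the other DADA libraries (ratio 0.885), all above the DMSO values. *Mapk3* reached 25.7 FPKM in DMSO 1, while DMSO 2 to 4 held 22.7 to 23.1 FPKM (ratio 0.859). *Etv4* reached 1.92 FPKM in DADA 1, while DADA 2 to 4 held 1.46 to 1.52 FPKM (ratio 0.857).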

How the results depend on the processing

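The calls of *Dusp1*, *Dusp4*, *Dusp5*, *Dusp16* and *Spry2* held in every alternative in which they were tested, and no member was called lower in any. The alternative of a mean of at least 5 FPKM kept 7 members in the test, of which 4 were called higher. It also called 3 other DUSP, Sprouty and SPRED genes higher and 2 ERK target genes lower, since fewer genes were tested. Without a filter, with TPM rescaling and with quantile normalization, 2 other DUSP, Sprouty and SPRED genes were called lower. TPM rescaling called 5 genes of the other RAS restraint list higher and 6 lower. TPM values were larger than FPKM values, so the same filter kept more genes (11480) and the added 1 weighed less. Its differences from the main fit are therefore not those of scaling alone. The log2 fold change of *Dusp2* reversed to 0.0025 with TPM rescaling and 0.029 with quantile normalization, and that of *Spred1* to -0.013 with quantile normalization. With the replicate number as a block, 6 members were called higher, *Dusp10* being lost (limma, adjusted p = 0.0852). Libraries that share a number did not deviate together, with correlations across genes of 0.10, -0.12, -0.09 and 0.08 for numbers 1 to 4, so the number is not taken as a pairing. Scaled by the longest annotated transcript, depth limited *Spry2*, *Dusp10*, *Dusp1* and *Spry1* most, with counting errors of up to 8.52% to 9.70%. Shorter transcripts would mean fewer fragments and larger errors, for example for *Dusp1* (421 to 2313 bases), so this order is not settled.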

Other observations

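Of the genes in the 5 related lists, 11 lay under the filter of 1 FPKM with a value above 0, and in a fit without the filter over 16167 genes 3 of them were higher with DADA, 3 were lower and 5 were not called (limma). Over all 16167 genes of that fit, 4007 were called higher and 3861 lower. *Dusp8*, a phosphatase of JNK and p38 like *Dusp10* and *Dusp16*, was at 0.0279, 0.0513, 0.112 and 0.0412 FPKM with DMSO and at 0.321, 0.380, 0.448 and 0.263 FPKM with DADA (adjusted p = 2.29e-04). The other genes called higher were the AP-1 gene *Fosb* and the cyclin gene *Ccnd1*. *Spry4*, a relative of *Spry1* and *Spry2*, was at 1.01, 0.901, 0.900 and 0.672 FPKM with DMSO and at 0.557, 0.398, 0.426 and 0.392 FPKM with DADA. Every DADA library was lower, with a log2 fold change of -0.37 (adjusted p = 0.00127), whereas *Spry2* was higher with DADA. The other genes called lower were *Mapk12*, which encodes a p38 isoform, and the receptor gene *Epha2*. *Dusp8* and *Spry4* were singled out after their values were seen, and all of these genes had low levels.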
